A study of Homo sapiens with 8 samples.

Results

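The genes described here make up the upstream part of the integrated stress response, chosen by symbol: the eIF2 kinases EIF2AK1 to EIF2AK4, the eIF2alpha subunit EIF2S1, the phosphatase subunits PPP1R15A and PPP1R15B, the GCN2 cofactors GCN1 and IMPACT, and the transcription factor ATF4. Of these 10 genes, 7 have a row named in the platform annotation, out of 14884 named genes in all. EIF2S1, PPP1R15A and PPP1R15B have no named row and were not analysed here. All 7 were above the filter on low levels and were tested, each from 1 transcript cluster. The study measured total RNA on Affymetrix Human Gene ST arrays in 2 established lines of human multiple myeloma, MM1.S and NCI-H929, to ask what loss of SIRT6, an NAD-dependent deacetylase of chromatin, does to myeloma cells. In both lines a scramble control (SCR) was set against cells silenced for SIRT6 with a short hairpin (shSIRT6). The 4 groups have 2 arrays each, 8 in all, and the labels name no clone, time or further agent. The duplicates are not said to be independent cultures. The p-values therefore reflect only how far duplicate arrays lay apart, and that distance may be technical.

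The integrated stress response slows protein synthesis when a cell is short of amino acids or haem, holds unfolded protein in the endoplasmic reticulum, or senses double-stranded RNA. Each kinase reads a different stress, and all phosphorylate the alpha subunit of the initiation factor eIF2, which lowers initiation at most messenger RNAs but lets the open reading frame of ATF4 be translated. PPP1R15A and PPP1R15B bring protein phosphatase 1 to eIF2alpha and reverse the mark. Kinase activity and ATF4 output are therefore set largely on protein, and array levels report the messenger RNAs only. Plasma cells and myeloma cells secrete or store large amounts of immunoglobulin and so load the endoplasmic reticulum.

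Promoter windows are shown for the 3 members with the lowest p for the hairpin in MM1.S, EIF2AK4, IMPACT and ATF4, and for EIF2AK2, whose gene is interferon-inducible. They are RefSeq windows of 300 bases on GRCh38.p14, from 250 before to 50 after the annotated start, at chr15:39933865-39934164 (plus strand), chr18:24426420-24426719 (plus strand), chr22:39520309-39520608 (plus strand) and chr2:37156931-37157230 (minus strand). Capitals mark matches, on either strand, to the C/EBP-ATF composite element TGATGNAA, the cAMP response element TGACGTCA, the core of the interferon-stimulated response element (GAAA, any 2 bases and GAAA), or CCAAT.
EIF2AK4: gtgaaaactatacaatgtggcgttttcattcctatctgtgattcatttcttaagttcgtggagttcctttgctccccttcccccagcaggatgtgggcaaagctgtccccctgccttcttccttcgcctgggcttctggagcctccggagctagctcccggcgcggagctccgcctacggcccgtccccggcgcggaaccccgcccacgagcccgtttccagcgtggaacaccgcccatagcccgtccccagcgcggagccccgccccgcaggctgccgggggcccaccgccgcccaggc
IMPACT: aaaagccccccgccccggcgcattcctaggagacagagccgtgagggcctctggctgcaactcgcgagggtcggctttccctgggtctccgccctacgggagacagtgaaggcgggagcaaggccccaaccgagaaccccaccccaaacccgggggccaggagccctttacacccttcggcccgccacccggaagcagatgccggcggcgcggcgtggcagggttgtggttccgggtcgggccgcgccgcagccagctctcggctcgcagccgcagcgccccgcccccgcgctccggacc
ATF4: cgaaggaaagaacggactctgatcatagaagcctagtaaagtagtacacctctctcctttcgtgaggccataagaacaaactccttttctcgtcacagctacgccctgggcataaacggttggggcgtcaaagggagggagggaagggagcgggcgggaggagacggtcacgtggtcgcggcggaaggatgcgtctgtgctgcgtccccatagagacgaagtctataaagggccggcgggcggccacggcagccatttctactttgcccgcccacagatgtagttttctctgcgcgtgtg
EIF2AK2: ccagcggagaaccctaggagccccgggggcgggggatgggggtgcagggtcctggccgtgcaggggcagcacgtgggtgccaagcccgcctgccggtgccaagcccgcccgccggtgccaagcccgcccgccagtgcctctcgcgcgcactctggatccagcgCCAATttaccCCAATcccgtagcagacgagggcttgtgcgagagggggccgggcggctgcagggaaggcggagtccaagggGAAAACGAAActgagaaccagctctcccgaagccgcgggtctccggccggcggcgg

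Of the 10 members, 9 had a window in the table. The windows of EIF2AK4, IMPACT and ATF4 hold none of the 4 motifs (0 matches each). That of EIF2AK2 holds GAAAACGAAA at position −6 from the start, a match to the interferon element, which 3.65% of 27305 promoter windows hold, and 2 CCAAT boxes, which 35.6% hold. Among the members that have no named row, the window of PPP1R15B holds 1 TGATGNAA (3.75% of windows) and that of PPP1R15A 1 TGACGTCA (1.94%). The EIF2AK3 window holds 4 CCAAT boxes. A match is only these letters in this window.

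Arrays of one group correlated at 0.989 to 0.992 over all rows, and median log2 levels per array lay between 3.88 and 3.97. SIRT6 was lower with shSIRT6 by a log2 difference of −0.295 in MM1.S and −0.47 in NCI-H929 (SE 0.16 for each), and neither passed (limma, Benjamini-Hochberg adjusted p = 0.355 and 0.276), so the target checks the construct labels only weakly. Of 7 plasma cell markers 5 had a row, and all 5 were above the filter, with mean log2 levels per group of 9.87 to 10.11. Of the genes at the known translocations of the lines, MAF read higher in MM1.S, and FGFR3 and NSD2 higher in NCI-H929. Of the T and NK cell markers 3 of 5 and of the myeloid markers 3 of 4 had a row, with mean log2 levels per group of 4.13 to 4.43 and 3.34 to 3.67. Those means were higher with shSIRT6 than with scramble in both lines. Single markers went the other way: GNLY in MM1.S (4.06 with scramble, 3.885 with shSIRT6) and CSF1R in NCI-H929 (4.5 and 4.3). LYZ, 1 of the myeloid markers, lay below the filter. The part of these markers in the results was not tested. Markers of stromal and erythroid cells had no named row (0 of 3 each).

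The hairpin against SIRT6 left no upstream member past the test, while the line of origin went with large differences. EIF2AK4, the gene of the amino acid sensor GCN2, had the largest difference with shSIRT6, a level lower by −0.575 log2 in MM1.S. IMPACT and ATF4 were next in MM1.S. Between the lines, EIF2AK3 (PERK) and GCN1 were over 1 log2 unit higher in NCI-H929, and EIF2AK1 (HRI) and EIF2AK2 (PKR) were lower by 0.77 to 1.03, with either construct.

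**Figure D1:**
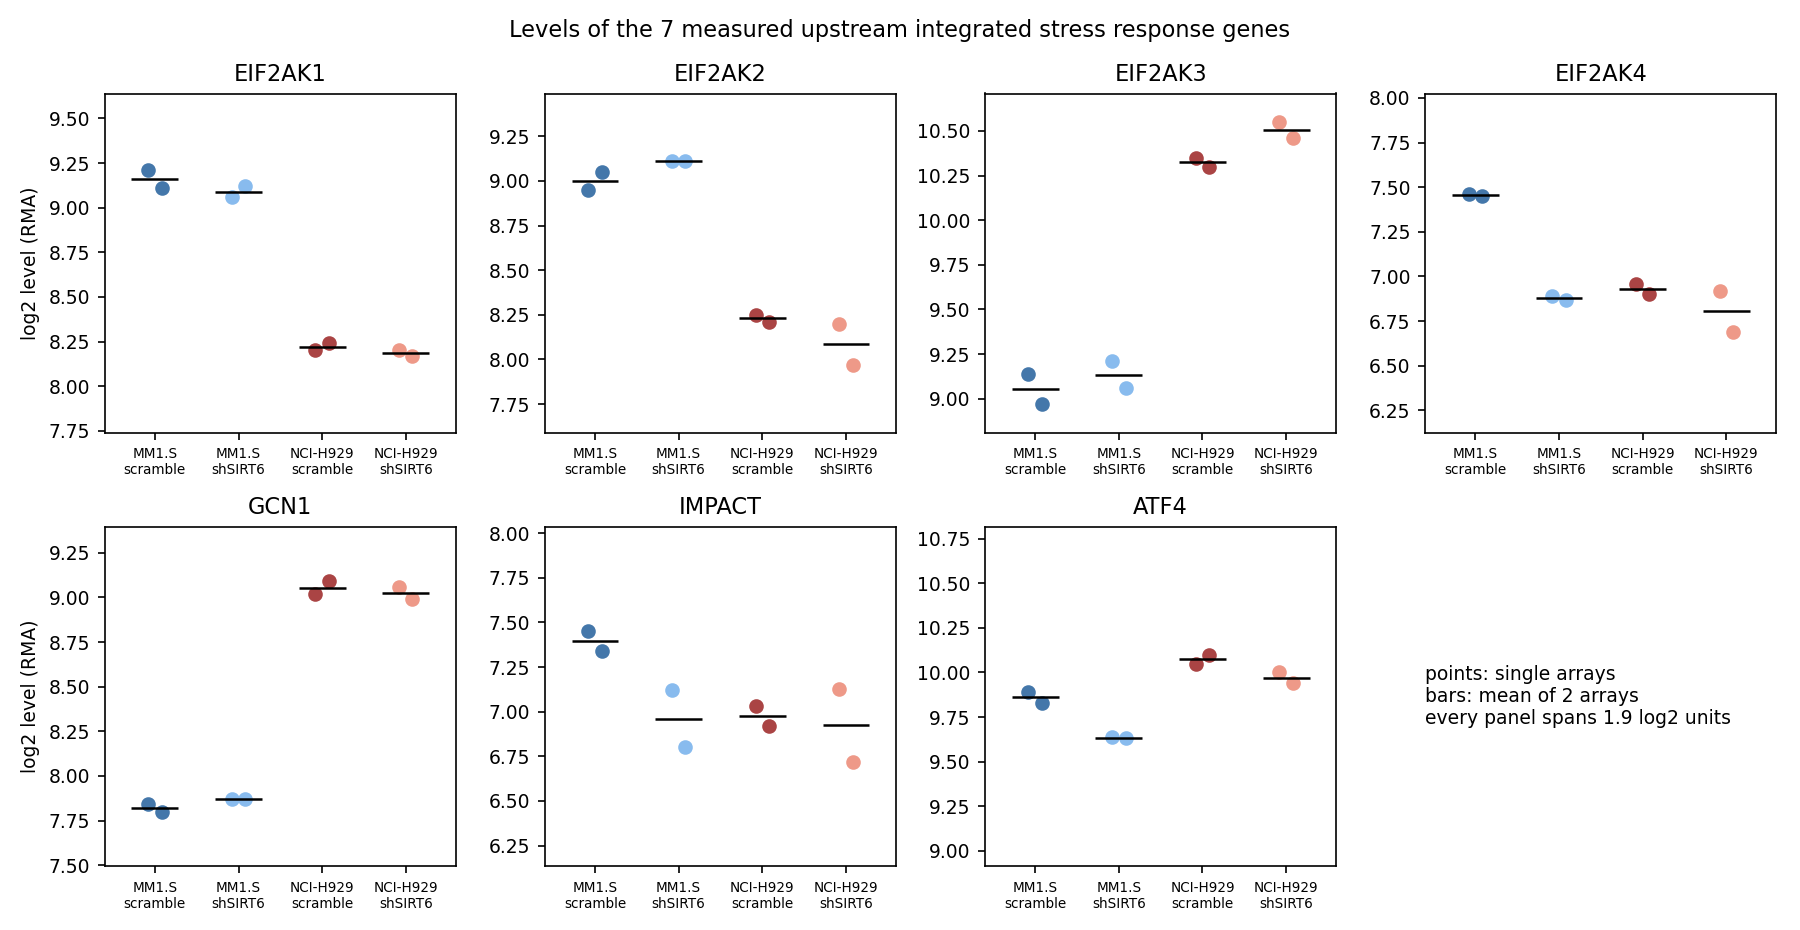
RMA log2 level (vertical axis) of the 7 measured members in the 4 groups; points are single arrays and bars the mean of 2 arrays. EIF2AK1, EIF2AK2, EIF2AK3 and GCN1 separate by line, as does ATF4 by less (9.63 to 9.89 in MM1.S, 9.94 to 10.1 in NCI-H929). EIF2AK4 stands higher in the MM1.S scramble arrays (7.46 and 7.45) than in the other 6 arrays (6.69 to 6.96).

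EIF2AK4 encodes GCN2, the kinase that binds uncharged transfer RNA when amino acids run short. Its log2 level in MM1.S was 7.46 and 7.45 on the scramble arrays, against 6.89 and 6.87 on the shSIRT6 arrays. The NCI-H929 arrays read 6.96 and 6.90 with scramble, against 6.92 and 6.69 with shSIRT6. The MM1.S groups were far apart, each with arrays within 0.02 of one another, and the NCI-H929 groups overlapped. The difference in MM1.S was −0.575 ± 0.11 (SE; 95% interval −0.82 to −0.33) and just missed the threshold (limma, Benjamini-Hochberg adjusted p = 0.0550, unadjusted p = 0.000843). It lay at percentile 2.68 of the differences of all genes tested. It was called with the stricter filter (adjusted p = 0.0373) and with eBayes with trend (0.00462), where 3.05% and 7.48% of all genes were called, and over all alternatives adjusted p ran from 0.00462 to 0.272. In NCI-H929 the difference was −0.125 ± 0.11 (95% interval −0.37 to 0.12; adjusted p = 0.617). The NCI-H929 difference exceeded that of MM1.S by 0.45 ± 0.15 (95% interval 0.097 to 0.80), which did not pass over all genes (adjusted p = 0.268), so the hairpin's effect on EIF2AK4 is not shown to differ between the lines.

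GCN1 and IMPACT act on the same kinase. GCN1 is the ribosome-bound scaffold that GCN2 needs for its activation, and IMPACT competes with GCN2 for GCN1 and so restrains it. IMPACT read 7.45 and 7.34 with scramble against 7.12 and 6.80 with shSIRT6 in MM1.S. The NCI-H929 arrays read 7.03 and 6.92 against 7.13 and 6.72. Its MM1.S groups did not overlap, its NCI-H929 groups did, and the second shSIRT6 array was the lowest of its line in both lines. The MM1.S difference of −0.435 ± 0.17 (SE; 95% interval −0.82 to −0.048) did not pass (limma, adjusted p = 0.211), and it was −0.275 without shSIRT6 replicate 2 and −0.595 without shSIRT6 replicate 1 of MM1.S. In NCI-H929 it was −0.05 ± 0.17 (adjusted p = 0.908). GCN1 read 7.84 and 7.80 with scramble against 7.87 and 7.87 with shSIRT6 in MM1.S, and 9.02, 9.09, 9.06 and 8.99 in NCI-H929 in the same order. Its differences with shSIRT6 were 0.05 ± 0.091 (95% interval −0.16 to 0.26) and −0.03 ± 0.091 (−0.24 to 0.18), neither called (adjusted p = 0.795 and 0.901).

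None of the other 3 kinases was called with shSIRT6. EIF2AK1 encodes HRI, the haem-regulated kinase that also relays mitochondrial stress. It read 9.21 and 9.11 with scramble against 9.06 and 9.12 with shSIRT6 in MM1.S, and 8.20, 8.24, 8.20 and 8.17 in NCI-H929 in the same order. Its groups overlapped within each line, with differences of −0.07 ± 0.093 (SE; 95% interval −0.29 to 0.15) and −0.035 ± 0.093 (−0.25 to 0.18). EIF2AK2 encodes PKR, which binds double-stranded RNA. It read 8.95 and 9.05 with scramble against 9.11 on both shSIRT6 arrays in MM1.S, and 8.25, 8.21, 8.20 and 7.97 in NCI-H929. Its groups did not overlap in either line and lay in opposite directions, 0.11 ± 0.11 in MM1.S and −0.145 ± 0.11 in NCI-H929. The difference between those, −0.255 ± 0.15, did not pass (limma, adjusted p = 0.505). EIF2AK3 encodes PERK, the kinase in the membrane of the endoplasmic reticulum. It read 9.14 and 8.97 with scramble against 9.21 and 9.06 with shSIRT6 in MM1.S, and 10.35 and 10.30 against 10.55 and 10.46 in NCI-H929. The MM1.S groups overlapped (0.08 ± 0.11) and the NCI-H929 groups did not (0.18 ± 0.11, 95% interval −0.073 to 0.43). Adjusted p for these kinases ran from 0.480 (EIF2AK3 in NCI-H929) to 0.884 (EIF2AK1 in NCI-H929).

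ATF4, the transcription factor at the end of this part of the pathway, read 9.89 and 9.83 with scramble against 9.64 and 9.63 with shSIRT6 in MM1.S. The NCI-H929 arrays read 10.05 and 10.10 against 10.00 and 9.94. The shSIRT6 arrays lay below the scramble arrays in both lines, with no overlap. The differences were −0.225 ± 0.091 (SE; 95% interval −0.44 to −0.013) in MM1.S and −0.105 ± 0.091 (−0.32 to 0.11) in NCI-H929, neither called (limma, adjusted p = 0.233 and 0.621). With eBayes with trend the MM1.S difference was called (adjusted p = 0.0228), and over all alternatives its adjusted p ran up to 0.576. RefSeq lists 4 ATF4 pseudogenes, and whether the cluster reads them is not known here. The 3 genes whose levels went most like ATF4 over the 8 arrays, after each line's mean was subtracted, were ADAM17 (Pearson r = 0.996), INSR (0.991) and GOLGA5 (0.990). These are the top values among 12734 genes over arrays that fall into 4 groups, and are given as a description.

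**Figure D2:**
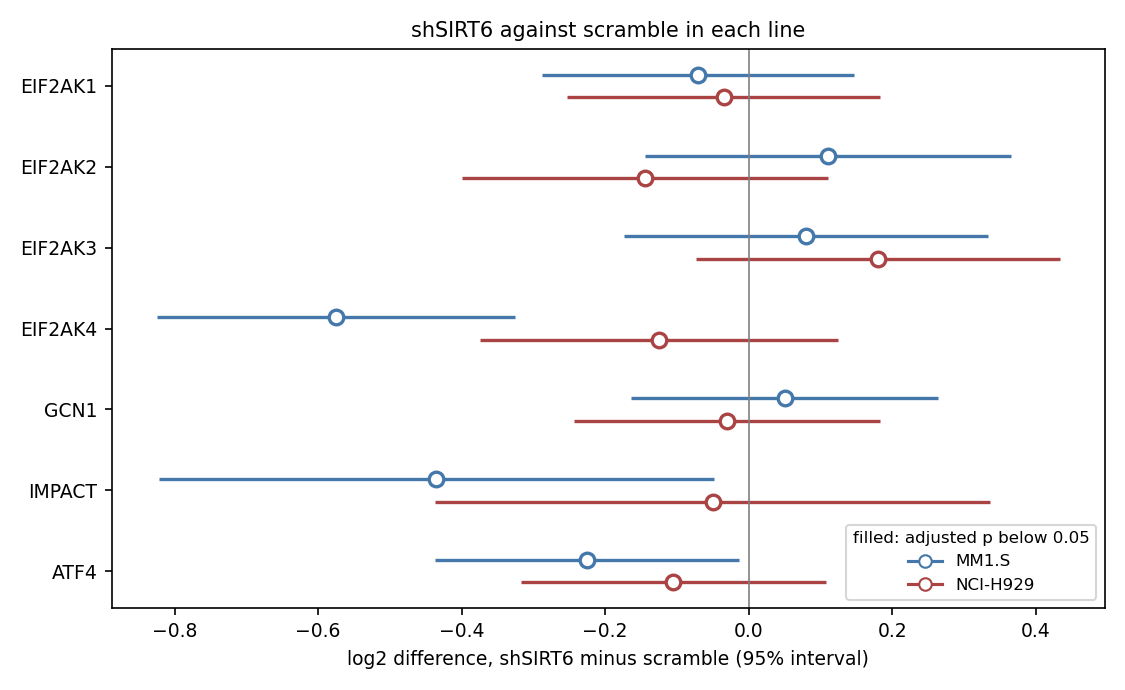
Log2 difference of shSIRT6 minus scramble (horizontal axis) for each member in MM1.S (blue) and NCI-H929 (red), with 95% intervals of the single difference; open points did not pass over all genes. Every point is open, and the MM1.S intervals of EIF2AK4 (−0.82 to −0.33), IMPACT and ATF4 lie below 0.

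Counted over the members, 0 of 7 were called in MM1.S, where 1.33% of all genes were called, and 0 of 7 in NCI-H929, where 0.0236% were (limma; 3 and 0 members at an unadjusted p below 0.05, against 19.6% and 14.5% of all genes). Their median difference was −0.07 in MM1.S and −0.05 in NCI-H929, against 0.005 and −0.045 over all genes tested. The arrays of the 2 constructs did not overlap for 5 of 7 members in MM1.S and 3 of 7 in NCI-H929, against 50.7% and 46.6% of all genes. For the mean over both lines 0 of 7 were called (limma; 0.0864% of all genes; 2 members at an unadjusted p below 0.05, against 21.3% of all genes), with EIF2AK4 at −0.35 ± 0.076 (SE; limma, adjusted p = 0.0833) and ATF4 at −0.165 ± 0.064 (adjusted p = 0.204). For the difference between the lines 0 of 7 were called (limma; 0.204% of all genes; 1 at an unadjusted p below 0.05, EIF2AK4, against 13.8% of all genes). With eBayes with trend 2 members, EIF2AK4 and ATF4, were called in MM1.S, where 7.48% of all genes then were, and for the mean, where 7.15% were.

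The next comparison asks how the lines themselves differ in these genes. With scramble, EIF2AK3 and GCN1 were higher in NCI-H929 and EIF2AK1, EIF2AK2 and EIF2AK4 lower, 5 of 7 members called against 38.3% of all genes (20% higher and 18.3% lower). EIF2AK3 differed by 1.27 ± 0.11 (SE), a fold of 2.41, and GCN1 by 1.235 ± 0.091 (limma, adjusted p = 0.000106 and 5.53e-05). EIF2AK1 differed by −0.94 ± 0.093, EIF2AK2 by −0.77 ± 0.11 and EIF2AK4 by −0.525 ± 0.11 (adjusted p = 0.000206, 0.00112 and 0.00620). IMPACT (−0.42 ± 0.17) and ATF4 (0.215 ± 0.091) were not called (adjusted p = 0.0852 and 0.105), though IMPACT was called under 4 alternatives. The scramble arrays of the lines did not overlap for any of the 7 members (67.9% of all genes).

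The shSIRT6 arrays, none of which is in that comparison, gave the kinases and GCN1 the same order of lines. Both comparisons use the same 2 lines and take each gene's spread from all 8 arrays, so their p-values are not independent. EIF2AK4 was the only one of these genes called with scramble and not with shSIRT6. EIF2AK3 was 1.37 ± 0.11 (SE) and GCN1 1.155 ± 0.091 higher in NCI-H929, EIF2AK1 differed by −0.905 ± 0.093 and EIF2AK2 by −1.025 ± 0.11 (limma, adjusted p from 7.37e-05 to 0.000280). ATF4 was higher there by 0.335 ± 0.091 (adjusted p = 0.0223), a call that was lost without any 1 of the 4 shSIRT6 arrays (adjusted p from 0.0515 to 0.0883). EIF2AK4 differed by −0.075 ± 0.11 (95% interval −0.32 to 0.17; adjusted p = 0.636) and IMPACT by −0.035 ± 0.17 (adjusted p = 0.895), with overlapping arrays. In all 5 of 7 were called, 3 higher and 2 lower, against 37.9% of all genes (18.4% higher and 19.5% lower), and 5 of 7 did not overlap (65.7% of all genes). EIF2AK4 thus passed between the lines with scramble and not with shSIRT6, but the test of that change is the difference of the hairpin effects above, which did not pass. By group, the mean level of EIF2AK4 ran from 7.455 (MM1.S scramble) over 6.93 (NCI-H929 scramble) and 6.88 (MM1.S shSIRT6) to 6.805 (NCI-H929 shSIRT6), and the MM1.S shSIRT6 arrays (6.89 and 6.87) lay just under the NCI-H929 scramble arrays (6.96 and 6.90) and inside the range of the NCI-H929 shSIRT6 arrays (6.69 to 6.92). ATF4 ran from 10.075 (NCI-H929 scramble) over 9.97 (NCI-H929 shSIRT6) and 9.86 (MM1.S scramble) to 9.635 (MM1.S shSIRT6), with no overlap between neighbours.

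**Figure D3:**
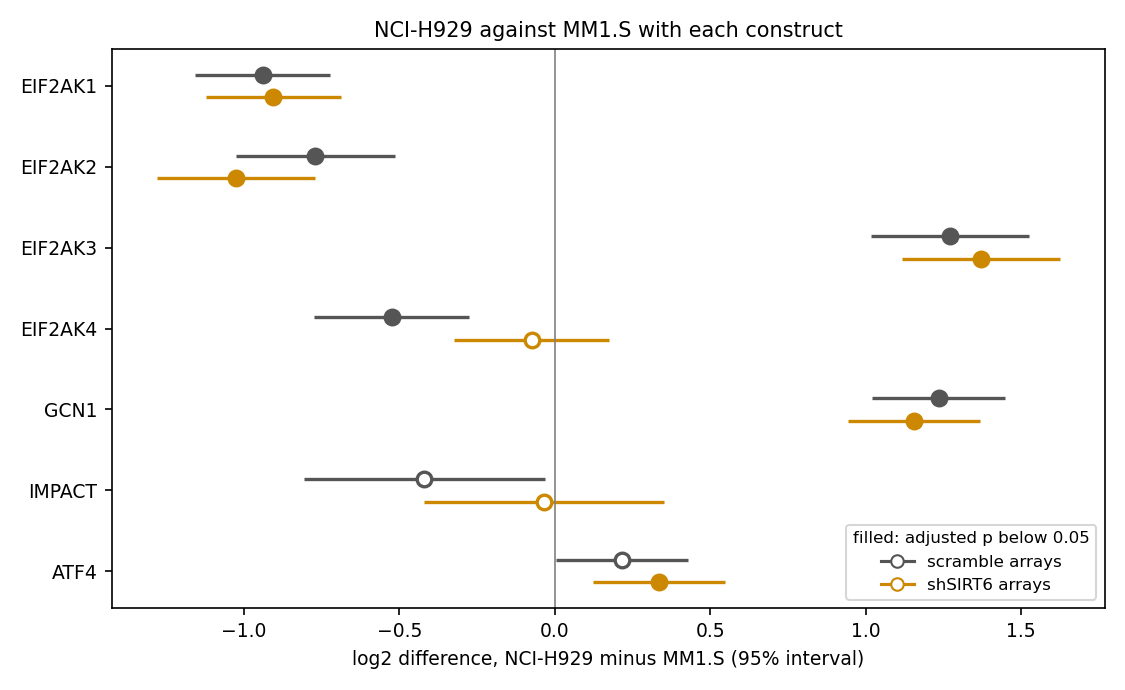
Log2 difference of NCI-H929 minus MM1.S (horizontal axis) for each member among scramble arrays (grey) and shSIRT6 arrays (orange), with 95% intervals; filled points passed over all genes. EIF2AK3 and GCN1 lie between 1.155 and 1.37, EIF2AK1 and EIF2AK2 between −1.025 and −0.77, and EIF2AK4 moves from −0.525 to −0.075.

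Around the members, lists of the pathway's other genes were described in the same fits. None of the 7 subunits of eIF2 and its exchange factor eIF2B and none of the 3 catalytic subunits of protein phosphatase 1 has a named row (0 and 0). Of 11 regulators of the kinases 4 were tested, and 0 were called with shSIRT6 in either line (limma). In each line 1 had an unadjusted limma p below 0.05, against 19.6% (MM1.S) and 14.5% (NCI-H929) of all genes. With eBayes with trend 1 was called lower in MM1.S, where 7.48% of all genes were called. NCK1, an adaptor that binds PERK and eIF2 complexes, read 7.37 and 7.32 with scramble against 6.82 and 6.85 with shSIRT6 in MM1.S, a difference of −0.51 ± 0.11 (SE; limma, adjusted p = 0.0767). DELE1, which carries mitochondrial stress to HRI, differed by −0.255 ± 0.11 in MM1.S and −0.31 ± 0.11 in NCI-H929 (adjusted p = 0.255 and 0.280). OMA1, the protease that cleaves DELE1, differed by −0.15 ± 0.13 and −0.01 ± 0.13, and TARBP2, an inhibitor of PKR, by 0.07 ± 0.10 and 0.06 ± 0.10. Of 9 factors of start-site selection and alternative initiation 7 were tested and 0 called in either line (limma), with medians of −0.155 and −0.04. Of the 7, 1 and 0 had an unadjusted limma p below 0.05, against the same 19.6% and 14.5% of all genes. EIF2D had the lowest p in both lines (−0.24 ± 0.10 and −0.195 ± 0.10; adjusted p = 0.247 and 0.412).

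The other sensors of the endoplasmic reticulum were not called with shSIRT6 either (limma, 0 of 6 in each line, medians −0.155 and −0.0325). Of the 6, 2 and 1 had an unadjusted limma p below 0.05, against 19.6% and 14.5% of all genes. With eBayes with trend 2 were called lower in MM1.S and 1 higher in NCI-H929, where 7.48% and 1.52% of all genes were called, and with the stricter filter 1 was called lower in MM1.S (3.05% of all genes). Both settings called 1 sensor higher in the difference between the lines (3.38% and 0.311% of all genes called). ERN1, which encodes IRE1, read 9.93 and 9.84 with scramble against 9.43 and 9.42 with shSIRT6 in MM1.S, and 9.03 and 8.98 against 9.39 and 9.50 in NCI-H929. The hairpin arrays were thus the low ones in MM1.S and the high ones in NCI-H929, with no overlap. Its differences of −0.46 ± 0.095 (SE) and 0.44 ± 0.095, and the difference between them of 0.90 ± 0.13, did not pass (limma, adjusted p = 0.0683, 0.191 and 0.0712). ATF6 differed by −0.285 ± 0.093 and −0.11 ± 0.093 (adjusted p = 0.162 and 0.614).

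Genes downstream of ATF4 were called in MM1.S. Of 32 genes on a list of ATF4 targets, 25 were tested. With shSIRT6 in MM1.S, 18 were called lower and 0 higher, with 1.12% of all genes called lower and 0.204% higher. By sign alone 23 differences were negative and 2 positive. At an unadjusted limma p below 0.05, 21 were lower and 0 higher, against 19.6% of all genes in either direction. Their median difference was −0.835 against 0.005 over all genes. ASNS, the asparagine synthetase, read 8.99 and 8.92 with scramble against 7.62 and 7.67 with shSIRT6, and SESN2, an inhibitor of mTORC1 signalling, 8.23 and 8.25 against 7.02 and 7.05. In NCI-H929 2 of 25 were called higher and 0 lower (0.0157% and 0.00785% of all genes), with a median of 0.115. There 17 differences were positive and 7 negative. At an unadjusted limma p below 0.05, 7 were higher and 1 lower, against 14.5% of all genes in either direction. The 2 called were DDIT3 (CHOP), which read 5.23 and 5.14 with scramble against 6.43 and 6.53 with shSIRT6, and SESN2, 7.81 and 7.67 against 8.71 and 8.83. Both were close to the threshold (limma, adjusted p = 0.0484). Neither was called with the mean of rows per gene, with a block for replicate number or with the 4 NCI-H929 arrays alone. ATF4's own difference of −0.225 in MM1.S stands beside ASNS at −1.31 ± 0.092 (SE) and DDIT3 at −1.195 ± 0.12 (limma, adjusted p = 0.00377 and 0.0107). The count of 18 was 0 with a block for replicate number and with the 4 MM1.S arrays alone, where 0 of all genes were called. Calls were fewer in both lines, on this list and over all genes, with any 1 array left out. The MM1.S medians then ran from −0.925 to −0.815. In NCI-H929 the count was 0 with no filter and with either other normalization, where 0 of all genes were called. The list was written with these results known.

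The ATF4 partners and regulators, 8 tested of 12, overlap with the targets in DDIT3, TRIB3 and ATF3. In MM1.S 2 of 8 were called lower (1.12% of all genes), DDIT3 and TRIB3, a pseudokinase that binds ATF4 (−1.165 ± 0.11, SE; limma, adjusted p = 0.00954). This count was 0 with a block for replicate number and with the 4 MM1.S arrays alone, where 0 of all genes were called. Calls were also fewer, here and over all genes, with any 1 MM1.S array left out. The median of −0.355 then ran from −0.43 to −0.28. TRIB3 differed by 0.985 ± 0.11 in NCI-H929 (limma, adjusted p = 0.105), and the difference between its effects, 2.15 ± 0.16, passed (adjusted p = 0.00497). With the replicate block that difference passed for 0 of the 8 and for 0 of all genes. Its median over the 8 was 0.52, and 0.2925 to 0.5825 with any 1 array left out. In NCI-H929 1 of 8 was called higher, DDIT3 (limma, adjusted p = 0.0484), where 0.0157% of all genes were called higher. BTRC, the F-box protein that marks ATF4 for degradation, differed by −0.33 ± 0.10 and −0.245 ± 0.10 in the 2 lines, neither called (adjusted p = 0.144 and 0.329). Interferon-stimulated genes, a list that bears on EIF2AK2, were tested for 17 of 29, with 1 called in MM1.S (1.33% of all genes), IFIT5 (−0.74 ± 0.11; limma, adjusted p = 0.0331), and 0 in NCI-H929 (0.0236% of all genes). The MM1.S count was likewise 0 with the replicate block and with the 4 arrays of that line alone. At an unadjusted limma p below 0.05, 4 of the 17 were higher and 1 lower in MM1.S, where the median was 0.105. In NCI-H929 2 were lower, with a median of −0.125. Over all genes 19.6% and 14.5% had such a p in either direction. Between the lines with scramble, 4 of these 17 were higher and 5 lower in NCI-H929, against 20% and 18.3% of all genes, among the latter IFIT5 (−2.475 ± 0.11) and HERC5 (−1.165 ± 0.13), and IRF7 was higher by 1.04 ± 0.16 (adjusted p = 5.03e-06, 0.000333 and 0.00147).

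**Figure D4:**
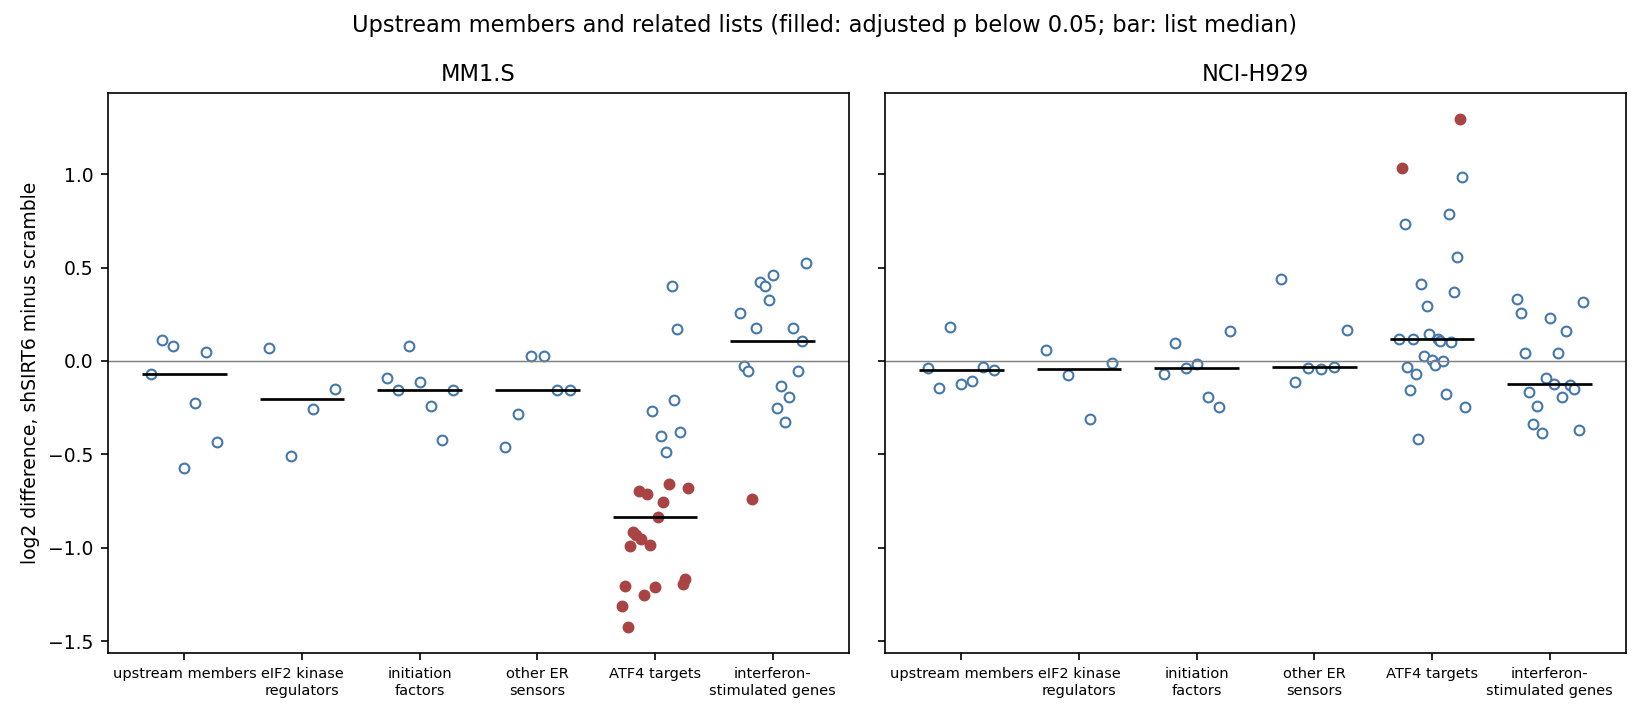
Log2 difference of shSIRT6 minus scramble (vertical axis) for the tested genes of the upstream members and 5 related lists in MM1.S (left) and NCI-H929 (right); filled points passed over all genes and bars are list medians. The ATF4 targets have a median of −0.835 in MM1.S and 0.115 in NCI-H929, while those of the upstream members are −0.07 and −0.05.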

How the data were processed

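The authors deposited log2 values, 1 row per transcript cluster, made with RMA and the Transcriptome Analysis Console on the hg19 build, per the submitters' processing notes. RMA normally subtracts background, normalizes and summarises probes, which can narrow small differences. Software versions: not given in the sources used here. The raw scanner files were not analysed here. Of 48226 rows, 16098 carry 1 gene symbol, 0 several and 32128 none. Symbols were updated through RefSeq gene IDs, which gave 14884 genes. For each gene the row with the highest mean was kept.

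The filter on low levels kept 12734 genes whose mean exceeded the 30th percentile of row means (log2 3.045). A model with 1 mean for each of 4 groups was fitted to the 8 arrays with limma 3.58.1 (R 4.3.3), leaving 4 residual and 3.43 prior degrees of freedom. A gene was called where its p, adjusted by Benjamini-Hochberg over every gene tested, was below 0.05. Intervals are 95% intervals of single differences, not adjusted. For a comparison of 2 arrays against 2, no exact two-sided permutation test can go below 0.333. The code was tested on simulated data.

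The members and lists were chosen with earlier results of these data known. Named genes were the members with a row, SIRT6, up to 3 genes per list by lowest p in each of the contrasts of shSIRT6 in either line and of their difference, and the 3 genes most like ATF4. Any gene beyond it is marked where it appears. Alternatives varied the row per gene, the filter, the normalization, the variance model, the arrays fitted, a replicate block and each array left out. The columns of the table held no other samples (0).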

Additional observations from a re-analysis of the deposited data

How the results depend on the processing

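Members called between the lines numbered 5 in both comparisons and stayed at 4 to 7 under every alternative run. Members called with shSIRT6 in MM1.S were 1 with the stricter filter (EIF2AK4) and 2 with eBayes with trend, and for the mean 2 with eBayes with trend, against 0 otherwise. Of 658 member differences under alternatives, 619 kept their direction and side of the threshold, 10 passed newly, 6 no longer passed (all ATF4 between the lines with shSIRT6) and 23 changed sign, none of them called. Quantile and cyclic loess normalization turned EIF2AK1 to 0.0516 and 0.0485 in NCI-H929 and to 0.0186 and 0.0094 for the mean, EIF2AK2 to 0.0605 and 0.0443 for the mean, and in NCI-H929 GCN1 to 0.0422 and 0.0534 and IMPACT to 0.0563 and 0.0225. With 1 array left out, values ran from −0.015 to 0.085 for EIF2AK1 in the difference of effects, −0.075 to 0.04 for EIF2AK2 and −0.0075 to 0.0275 for GCN1 in the mean, and −0.005 to 0.165 for EIF2AK3 in MM1.S. They ran from −0.065 to 0.005 for GCN1 and −0.255 to 0.155 for IMPACT in NCI-H929, and between the lines with shSIRT6 from −0.19 to 0.04 for EIF2AK4 and −0.24 to 0.17 for IMPACT. The cause was not tested. Over all genes, the 169 called in MM1.S became 953 with eBayes with trend, 314 with the stricter filter and 0 with the replicate block or the 4 arrays of the line alone. With trend the counts were 194 in NCI-H929 (against 3), 911 for the mean (11) and 430 for the difference (26), and the stricter filter gave 98 for the mean. Deviations of same-numbered arrays correlated at r = 0.077 in MM1.S and −0.0011 in NCI-H929. Whether such arrays shared a culture or batch is not stated in the labels and was not tested. With the replicate block EIF2AK4 in MM1.S had an adjusted p of 0.138 (limma) and ATF4 between the lines with shSIRT6 one of 0.0515, and 18 called ATF4 targets became 0. Signal over background could not be judged, and 2 arrays a group limit the precision.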

Other observations

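Between the lines, the ATF4 targets gave different counts with the 2 constructs, in comparisons that share no array but use the same estimate of spread. With scramble, 9 of 25 tested targets were higher and 7 lower in NCI-H929 (20% and 18.3% of all genes), with a median difference of 0.085. With shSIRT6, 22 were higher and 0 lower (18.4% and 19.5% of all genes). The median was 0.865, and 0.82 to 0.92 with any 1 array left out. ASNS went from −0.325 ± 0.092 (SE) to 1.10 ± 0.092 and SESN2 from −0.50 ± 0.10 to 1.735 ± 0.10. The change between constructs passed for both (limma, Benjamini-Hochberg adjusted p = 0.0170 and 0.00386). It was called higher for 7 of 25 targets and lower for 0, with 18 not called, against 0.204% of all genes called in either direction. With the replicate block that change passed for 0 of 25 targets and for 0 of all genes. Calls of the change were fewer with any 1 array left out, over the targets and over all genes. Its median over the targets then ran from 0.775 to 0.895. ATF4 went from 0.215 to 0.335, and its change of 0.12 ± 0.13 did not pass (adjusted p = 0.715). DDIT4, an inhibitor of mTORC1, was higher in NCI-H929 by 2.25 ± 0.098 with scramble and 4.41 ± 0.098 with shSIRT6 (adjusted p = 4.74e-06 and 6.89e-07).

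Of the 7 tested initiation factors, 3 were called higher and 1 lower in NCI-H929 with scramble (20% and 18.3% of all genes), and 3 and 1 with shSIRT6 (18.4% and 19.5%). DENR, which with MCTS1 supports reinitiation after short reading frames and has been tied to ATF4 translation, was higher in NCI-H929 by 1.065 ± 0.10 (SE) with scramble and 1.38 ± 0.10 with shSIRT6 (limma, adjusted p = 0.000161 and 4.83e-05). EIF5 was higher by 0.765 ± 0.10 and 0.645 ± 0.10, and EIF2D lower, at −0.53 ± 0.10 and −0.485 ± 0.10. EIF1B was also called higher, by 0.545 ± 0.091 with scramble and 0.795 ± 0.091 with shSIRT6. EIF1, EIF5B and MCTS1, named to account for the rest of the list, were not called with either construct.

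The neighbours of EIF2AK4 and IMPACT on the chromosome, taken from RefSeq's gene order and examined after the members' values were seen, were not called in MM1.S. The 6 nearest tested genes of EIF2AK4 differed with shSIRT6 there by −0.23 (FSIP1) to 0.215 (GPR176). Those of IMPACT ran from −0.57 (CABYR, limma adjusted p = 0.0916) to 0.215 (CHST9), with OSBPL1A, the gene next to IMPACT, at −0.44 (adjusted p = 0.281).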
